A study of Mesocricetus auratus with 21 samples.

Results

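The transcriptome of wild-type golden hamster testis was compared between 21 days postpartum (d.p.p.) and adulthood. The comparison takes 4 of the 21 RNA-seq libraries of testis, chosen by genotype and age in their labels, with 2 libraries at 21 d.p.p. and 2 from adults, and covers the 22285 genes of the count table. All 4 animals were *Mov10l1*+/+ males, and the adults were 65 weeks old (replicate 1) and 23 weeks old (replicate 2), so the adult pair differs widely in age. The study asked what the loss of MOV10L1, an RNA helicase needed to make piRNAs, does to the hamster germline, and its wild-type libraries were the controls. The *Mov10l1*-/- libraries set beside them come from 2 animals of 21 d.p.p. and from 2 adults of 63 and 53 weeks. The knockout lacks exon 20 of *Mov10l1* after CRISPR-Cas9 cutting, and the line goes back to 1 founder female, whose descendants were crossed with outbred wild-type animals. Its adult males have testes that are nearly devoid of germ cells. Every library was made from the total RNA of whole testis depleted of ribosomal RNA, and those described here were sequenced as pairs of 150-nucleotide reads.

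Spermatogenesis starts from spermatogonia, which divide by mitosis and then enter meiosis as spermatocytes, and ends with spermatids that build a flagellum, a condensed nucleus and an acrosome. The first wave of the process runs in step across the testis of a young male. At 21 d.p.p. the leading hamster spermatocytes are in the pachytene stage of the first meiotic division, whereas an adult testis holds every stage at once, among Sertoli cells, Leydig cells, peritubular muscle-like cells, vessels and immune cells. A bulk library of whole testis reports shares of RNA, so that fewer cells of a type and less RNA per cell cannot be told apart in any value given here.

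The library of 21 d.p.p. replicate 1 held 6549436 counts and that of replicate 2 20656904, and the adult libraries held 38013001 and 21642009. Levels are given in CPM, the counts of a gene scaled to a common library total, with totals adjusted by edgeR's TMM factors over these 4 libraries, or over 10 libraries where other ages or the knockout are set beside them. At 21 d.p.p. the replicates differed from each other more than the adult ones did, with a chi-square per degree of freedom of 134 against 67.9, so neither pair was one library deposited in duplicate. In 21 d.p.p. replicate 2 as few as 8 genes held 50% of all counts, against 366 genes in replicate 1 and 393 and 433 genes in the adults. Its 2 most abundant genes took 37.1% of the counts, against 19.6% in replicate 1 and 15.2 and 14.1% in the adults. Ribosomal RNA was removed with 1 of 2 kits, and which library had which kit is not given in the sources used here. Replicate 1 of 21 d.p.p. had the higher level in 45.9% of all genes but in 16 of 18 piRNA pathway genes, 15 of 17 meiotic genes and 19 of 23 late germ cell genes. It had the higher level in 3 of 29 extracellular matrix genes and in 2 of 10 Sertoli cell genes. Between the adults, the 65-week animal had the higher level in 28 of 29 histone genes and 22 of 29 extracellular matrix genes, against 50.9% of all genes. The part of these differences between animals in the changes with age was not tested.

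**Figure D1:**
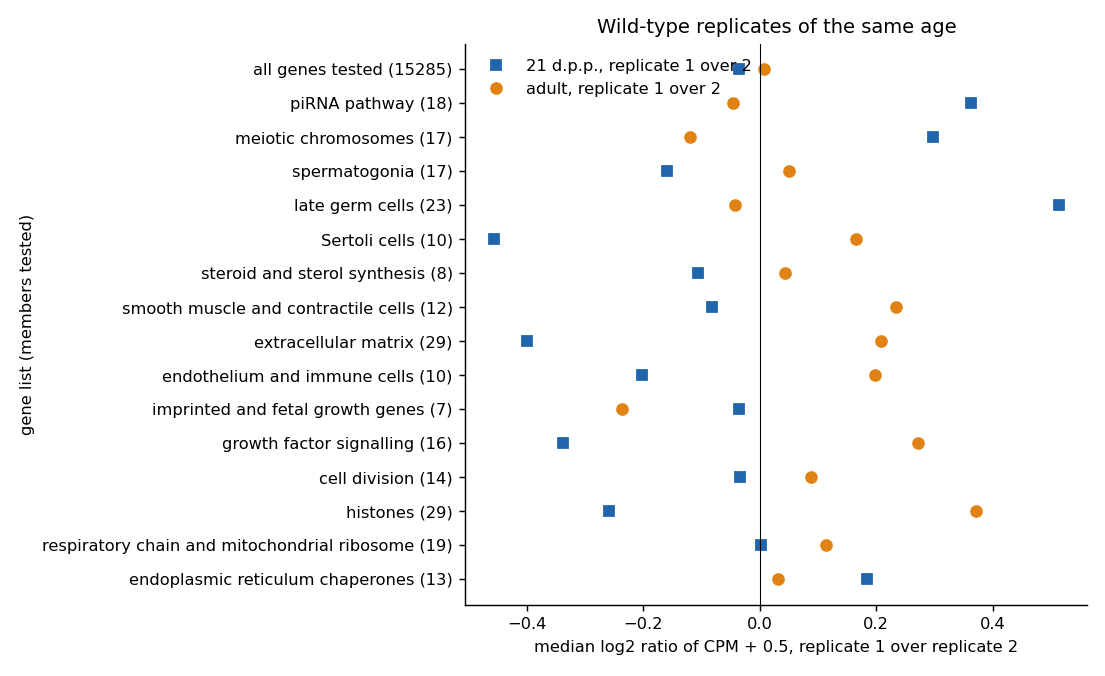
Median log2 ratio of replicate 1 over replicate 2 within each age (x axis, CPM plus 0.5) for all genes tested and for 15 gene lists (y axis), with squares for 21 d.p.p. and circles for adults. The late germ cell list stands at 0.51 between the 21 d.p.p. animals and the histones at 0.37 between the adults, whereas all genes lie near 0.

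The adult testis differed from the testis of 21 d.p.p. in about every other gene that could be tested. Of 15285 genes, 4420 (28.9%) were called higher in adults and 3502 (22.9%) lower, together 7922 (51.8%), by edgeR's quasi-likelihood test at a Benjamini-Hochberg adjusted p below 0.01. Increases were steeper than decreases, with a median size of 2.44 on the log2 scale against 1.58. Among the genes called higher, 1149 rose at least 16-fold and 572 at least 64-fold, and among those called lower 42 fell at least 16-fold and 3 at least 64-fold. These are fitted folds, which for genes with few or no counts at an age depend on the prior count of the fit. In 6493 genes both adult libraries lay above both libraries of 21 d.p.p., in 6594 they lay below, and in 2198 the ages overlapped. Which direction prevailed depended on the scaling. Of the calls, 55.8% were higher in adults with TMM, 33.1% with upper-quartile scaling and 42.4% without scaling factors, as these moved the median of all genes by -0.66 and -0.44 on the log2 scale. Without the 65-week adult 2088 genes were called lower in place of 3502.

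**Figure D2:**
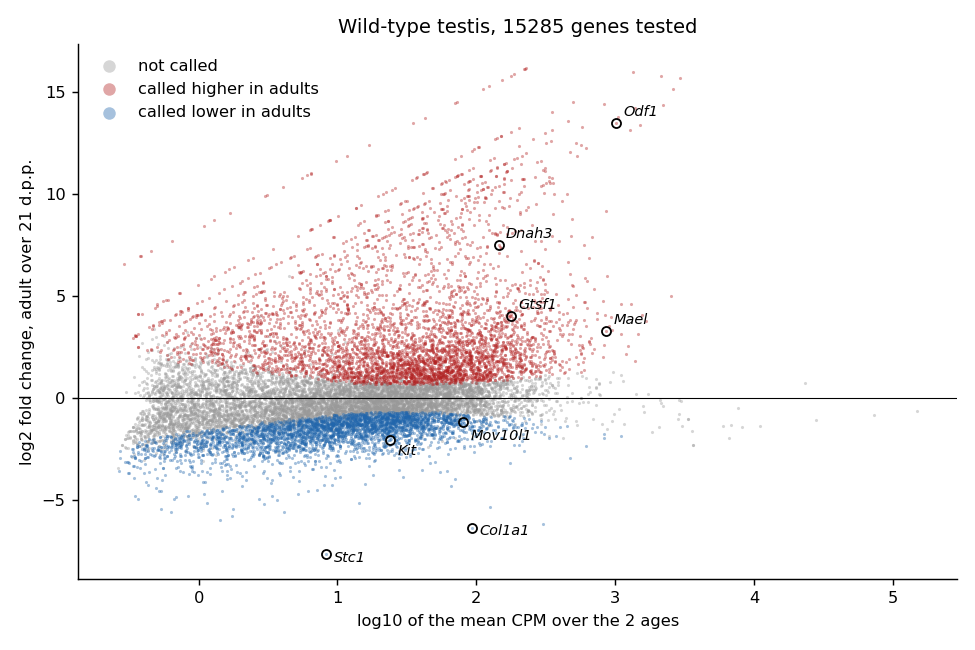
Log2 fold change of adults over 21 d.p.p. (y axis) against the log10 of the mean CPM over both ages (x axis) for 15285 genes, red where called higher, blue where called lower and grey where not called. The upper arm of the cloud reaches far above the lower one, with *Odf1* near its top and *Stc1* and *Col1a1* among the lowest points, and its slanted edges hold genes with few or no counts at 21 d.p.p.

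A large set of genes was close to silent at 21 d.p.p. and abundant in adults. With limits that were chosen after the values were seen, 380 genes lay below 0.5 CPM in both libraries of 21 d.p.p. and at or above 10 CPM in both adults, and no gene met the reverse limits. Together the 380 genes held 0.00927 and 0.00609% of all counts at 21 d.p.p. and 7.7 and 8.66% in the adults. At 13 d.p.p., 371 of them were below 1 CPM in both wild-type libraries, and in the adult *Mov10l1*-/- testes 369 were below 1 CPM in both. Only 4 of the 380 have a symbol in the tables in hand, *Odf1*, *1700001C02Rik*, *Satl1* and *Vat1l*. Symbols come from the study's lists of genes that differed between genotypes and cover 1044 of the 22285 genes, so the named genes below are not a sample of all genes. Of the 1014 tested genes with a symbol, 228 (22.5%) were called higher and 367 (36.2%) lower, with a median log2 fold change of -0.52. Counts of calls in the lists below are to be read beside these shares and those of all genes.

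The 2 genes with the highest adult CPM among those called higher with a log2 fold change of at least 2 are known by identifier alone; CPM takes no account of gene length, so this order is one of read counts and not of transcript levels. *ENSMAUG00000021536* had 0.101 and 0.109 CPM at 21 d.p.p. and 5321 and 6336 CPM in the adults. The ratio of its levels, on 3 counts at 21 d.p.p., was 53500 (95% exact interval 18300 to 259000, counting error only). *ENSMAUG00000020669* rose from 0 and 0.219 CPM to 4845 and 5479 CPM, a ratio of 35800 (14000 to 131000) on 4 counts. The tables in hand pair neither with a name. On the other side, *ENSMAUG00000006107* fell from 807 and 856 CPM to 98.5 and 116 CPM (log2 fold change -2.96 ± 0.29 (SE), adjusted p = 0.000114 by edgeR). In no case did the ages overlap, which they did in only 2198 of the 15285 genes tested.

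Among genes with a symbol the steepest rise was that of *Odf1*, which encodes a protein of the outer dense fibres along the sperm tail. It had 0 and 0.274 CPM at 21 d.p.p. and 1784 and 2256 CPM in adults, a ratio of 11000 (95% exact interval 4720 to 33900) on 5 counts at 21 d.p.p. On the MesAur1.0 assembly the gene lies on the minus strand of scaffold KB708161.1, from 13239174 to 13247240. *1700001C02Rik* rose from 0 and 0.109 to 111 and 128 CPM and *Satl1* from 0 and 0.164 to 28.6 and 37.8 CPM, with ratios of 1650 (457 to 13600) and 300 (102 to 1460). *Dnah3*, a heavy chain of the axonemal dynein motor, rose from 1.31 and 1.80 to 243 and 334 CPM (7.49 ± 0.35, adjusted p = 3e-06 by edgeR). *Cd46*, a regulator of complement found on the acrosome of rodent sperm, rose from 0.706 and 0.547 to 58.6 and 89.7 CPM (6.92 ± 0.35). The rest of the 12 steepest were *Ankrd9*, *Clmn*, the ephrin receptor *Epha3*, the kinase *Brsk1*, *Rpgrip1*, the adhesion receptor *Adgrv1* and *Vat1l*, with log2 fold changes between 5.05 and 6.55. *Rpgrip1* was the one whose 21 d.p.p. libraries lay far apart, at 56.1 and 12.03 CPM against 1368 and 1376 CPM in adults. Its log2 fold change of 5.34 ± 0.74 became 6.84 without 21 d.p.p. replicate 1 and 4.60 without replicate 2.

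The steepest declines were those of genes that the testis reads at a low or moderate level at 21 d.p.p. *Stc1*, which encodes the secreted hormone stanniocalcin, fell from 8.77 and 24.4 CPM to 0.0910 and 0.0539 CPM, a ratio of 244 (95% exact interval 94.5 to 897) on 4 adult counts. *Col1a1*, a chain of type I collagen on the plus strand of scaffold KB708184.1 (7308339 to 7324801), fell from 77.3 and 291 to 2.37 and 2.05 CPM (-6.37 ± 0.67, adjusted p = 0.000163 by edgeR). The libraries of 21 d.p.p. differed for it, and its log2 fold change was -7.02 without replicate 1 and -5.13 without replicate 2. For *C1qtnf3*, *Pcyt1b*, *Nxph4* and *Apln* the adults held 2 to 10 counts in all, and the ratios were 84.1 (22.6 to 705), 54.6 (27.3 to 128), 20.5 (10.7 to 43.8) and 15.2 (7.61 to 34.6). *Apln* encodes the peptide hormone apelin. *Gjc3*, a connexin of gap junctions, fell from 4.94 and 5.74 to 0.243 and 0.0539 CPM. With 1 library left out the fitted log2 fold changes lay between -4.60 and -6.94 for *Pcyt1b*, -4.44 and -6.42 for *Gjc3*, -3.11 and -4.91 for *Apln* and -6.74 (without 21 d.p.p. replicate 2) and -8.20 (without 21 d.p.p. replicate 1) for *Stc1*, whereas *C1qtnf3* lay at -4.65 and -8.91 without the 65-week and the 23-week adult and could not be tested without 21 d.p.p. replicate 2. *Mycn*, a transcription factor that drives growth, fell from 8.37 and 11.2 to 0.637 and 1.08 CPM (-3.56 ± 0.36). *Col9a1* fell from 40.5 and 62.1 to 4.16 and 4.74 CPM (-3.54 ± 0.26), and *Foxo6* and *Igsf10* fell by 4.14 and 3.66 on the log2 scale, *Igsf10* by 4.40 without the 65-week adult. The embryonic globin gene *Hbb-y* went from 2.02 and 5.25 to 0.121 and 0.539 CPM, a log2 fold change of -3.66 ± 0.72 that lay between -2.76 and -4.89 when a library was left out and was not called without 21 d.p.p. replicate 2.

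Genes of late germ cells rose as a group. Of 23 members tested, 17 (73.9%) were called higher and 1 (4.35%) lower, against 28.9 and 22.9% of all genes. The median log2 fold change was 2.09 against -0.05 over all genes. With upper-quartile scaling 14 were called higher and 2 lower, and without scaling factors 9 and 0. The summed level of the list, on a scale set over 10 libraries, was 2680 and 1690 CPM at 21 d.p.p. and 12500 and 12800 CPM in adults. Its members, like those of every list here, are named because the study found them to differ between genotypes, save *Piwil3* and *Tex101*. Those comparisons were made in oocytes or in testes younger than 21 d.p.p. and did not use the libraries of this comparison. Members and lists were chosen with earlier results of these data known, so the lists are no independent evidence of a direction. The heat-shock relative *Hspa4l* rose from 279 and 195 to 1408 and 1435 CPM (2.58 ± 0.35, adjusted p = 0.000508 by edgeR). The gene described as t-complex 11 rose from 152 and 56.1 to 2524 and 2491 CPM (4.60 ± 0.57, adjusted p = 0.000358). *Ybx2*, a Y-box protein that binds stored messenger RNA in germ cells, rose from 328 and 128 to 1948 and 2007 CPM (3.12 ± 0.51). Both t-complex 11 and *Ybx2* were higher in 21 d.p.p. replicate 1, and without that library they rose by 5.49 and 3.95, without the other by 4.04 and 2.58.

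Structural and motor proteins of the sperm tail stood beside enzymes and regulators in this group. *Cfap58*, a cilia and flagella protein, rose from 6.66 and 3.56 to 114 and 131 CPM (4.62 ± 0.33, adjusted p = 2.2e-05 by edgeR). *Slc26a8*, an anion transporter of sperm, rose from 40.4 and 13.2 to 306 and 292 CPM (3.49 ± 0.50), with 4.51 and 2.87 when replicate 1 or replicate 2 of 21 d.p.p. was left out. *Kcnu1*, the potassium channel of sperm, rose from 14.6 and 12.6 to 59.5 and 79.8 CPM (2.36 ± 0.22). Among the regulators, the transcription factor *Sox30* rose from 23.5 and 14.2 to 109 and 147 CPM (2.77 ± 0.30) and the RNA helicase *Ddx25* from 102 and 62.2 to 466 and 457 CPM (2.50 ± 0.31). *Brdt*, a bromodomain protein that reads acetylated histones, rose from 86.4 and 36.6 to 246 and 339 CPM (2.25 ± 0.42; 3.00 and 1.74 without replicate 1 and replicate 2 of 21 d.p.p.). *Rpl39l*, a ribosomal protein gene of the male germline, rose from 51.9 and 53.1 to 218 and 153 CPM (1.82 ± 0.25).

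The list was not uniform. *Slc25a31*, the ADP/ATP carrier of male germ cells, had 82.4 and 83.1 CPM at 21 d.p.p. and 48.9 and 48.2 CPM in adults and was called lower (-0.77 ± 0.18, adjusted p = 0.00652 by edgeR). Its call was lost without either adult (adjusted p = 0.075 and 0.076 by edgeR). For *Tex101*, *Adad2*, *Rpl10l*, *Tex14* and the tubulin alpha-3 chain no change was called, with log2 fold changes between -0.53 and 0.54. *Tex101*, a surface protein of germ cells, had 56.7 and 52.2 CPM at 21 d.p.p. and 33.0 and 42.5 CPM in adults. The call for *Boll* (1.22 ± 0.24) was lost without either adult, at 1.36 and 1.08.

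**Figure D3:**
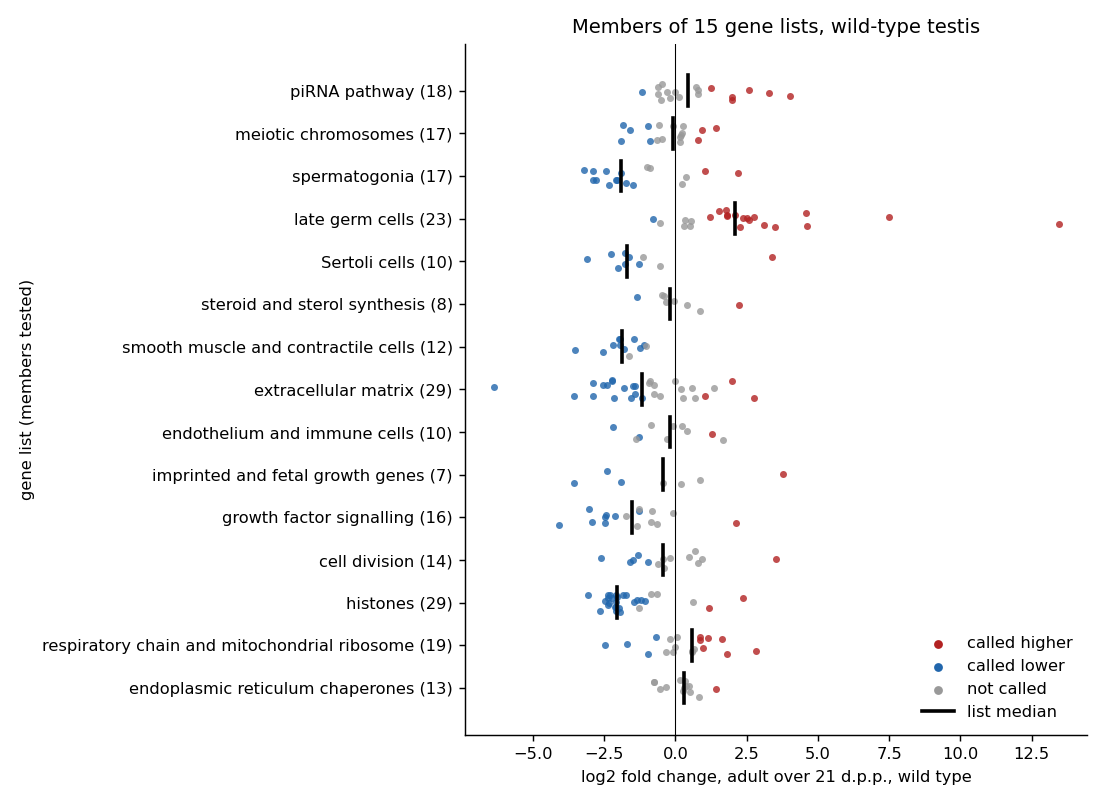
Log2 fold change of adults over 21 d.p.p. (x axis) for each tested member of 15 gene lists (y axis, number tested in brackets), coloured by call, with a black bar at the median of each list. The late germ cell list lies to the right with a median of 2.09, and the spermatogonial, smooth muscle and histone lists lie to the left with medians of -1.90, -1.87 and -2.03.

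Meiotic genes, by contrast, had no common direction with TMM scaling. Of 17 genes of chromosome synapsis, cohesion and recombination, 3 (17.6%) were called higher and 5 (29.4%) lower. Over all genes the shares were 28.9 and 22.9%. The list's median log2 fold change was -0.09. With upper-quartile scaling 0 were called higher and 8 lower, and without scaling factors 0 and 4. A joint fit with 13 d.p.p. gave 0 and 2. In the interval before, from 13 to 21 d.p.p., 10 of the same 17 were called higher and none lower, where 4.2% of 13178 genes were called, 3.54% higher and 0.668% lower; both intervals share the libraries of 21 d.p.p. *Sycp1*, the transverse filament of the synaptonemal complex, stood at 53.5 and 29.8 CPM at 13 d.p.p. on the 10-library scale. It had 493 and 381 CPM at 21 d.p.p. and 231 and 332 CPM in adults on the 4-library scale, and the change to adulthood was not called (-0.64 ± 0.30, adjusted p = 0.0935 by edgeR). *Zcwpw1*, a histone methylation reader at sites of recombination, fell from 43.3 and 31.8 to 10.9 and 8.89 CPM (-1.91 ± 0.22, adjusted p = 0.000248 by edgeR). *Tex12*, a part of the central element of the synaptonemal complex, fell from 21.6 and 25.9 to 7.22 and 6.03 CPM (-1.84 ± 0.20). *Syce1*, another part of the same element, moved the other way, from 34.8 and 20.1 to 76.8 and 69.2 CPM (1.42 ± 0.27). The cohesin subunit *Stag3* and the recombination factor *Hsf2bp* were called higher (0.92 ± 0.20 and 0.81 ± 0.17), but neither was called without either adult. The smaller decline of *Majin* (-0.88 ± 0.19) was likewise not called without either adult, nor without 21 d.p.p. replicate 1. That of *Rec114* (-0.95 ± 0.21) was not called in any fit that leaves out a library. Counts of calls in this list fell to 1 higher and 3 lower without either adult.

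Spermatogonial genes fell. Of 17 members 11 (64.7%) were called lower and 2 higher, against 22.9% lower over all genes, with a median log2 fold change of -1.90. The summed level of the list went from 484 and 448 to 221 and 246 CPM on the 10-library scale. *Kit*, the receptor of differentiating spermatogonia, fell from 38.1 and 39.2 to 9.74 and 8.62 CPM (-2.07 ± 0.17, adjusted p = 5.57e-05 by edgeR). *Sohlh1*, a transcription factor of spermatogonial differentiation, fell from 18.7 and 31.5 to 4.09 and 2.53 CPM (-2.90 ± 0.34). *Sall4*, a zinc-finger factor of undifferentiated and differentiating spermatogonia, fell from 12.1 and 10.1 to 1.67 and 1.29 CPM (-2.88 ± 0.28). Ages did not overlap for any of these 3, and they overlapped in only 2198 of the 15285 genes tested. The deubiquitinase *Uchl1* (-2.42 ± 0.29), the RNA-binding protein *Elavl2* (-2.04 ± 0.24), *Egr4* (-2.79 ± 0.32), *Taf4b* (-1.72 ± 0.18), *Trim71* (-2.33 ± 0.25) and *Nxf2* (-1.90 ± 0.19) fell as well. For *Zbtb16* the call at -1.50 ± 0.36 was lost without 21 d.p.p. replicate 1 (-1.26) or without the 65-week adult (-1.12).

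Both receptors of GDNF, the growth factor that keeps spermatogonial stem cells, were measured, and they went apart. *Gfra1*, which binds GDNF, rose from 3.33 and 2.68 to 13.9 and 13.3 CPM (2.19 ± 0.24, adjusted p = 0.000186 by edgeR). *Ret*, the kinase that signals with it, fell from 5.85 and 8.59 to 0.940 and 0.593 CPM (-3.19 ± 0.37, adjusted p = 0.000267). Each kept its direction and call when any of the 4 libraries was left out. *Etv5*, a transcription factor that GDNF induces, was called higher (1.04 ± 0.24), but not without replicate 1 of 21 d.p.p., replicate 2 of 21 d.p.p. or the 65-week adult (0.97, 1.12 and 0.88). *Id4*, a marker of stem cells, had 54.6 and 36.4 CPM at 21 d.p.p. and 56.7 and 59.5 CPM in adults, with no call. *Bcl6b*, *Lin28a* and *Dazl* were not called either.

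The piRNA pathway was examined next. piRNAs are cut from long transcripts, loaded on PIWI proteins, trimmed and methylated, and guide these proteins to transposon RNA. Of 18 members tested, 6 (33.3%) were called higher and 1 (5.56%) lower, against 28.9 and 22.9% of all genes, so the share called higher was near that of all genes, and the median of 0.44 fell to -0.22 with upper-quartile scaling, to -0.16 without scaling factors and to -0.23 without 21 d.p.p. replicate 2. *Piwil3* was too low to be tested, at 0.605 and 0.438 CPM and 0.182 and 0.162 CPM. *Mov10l1* itself (plus strand of scaffold KB708136.1, 11073749 to 11134091) had 113 and 109 CPM at 21 d.p.p. and 46.0 and 53.8 CPM in adults (-1.15 ± 0.19, adjusted p = 0.00149 by edgeR). The call was lost without the 65-week adult (-1.02, adjusted p = 0.033 by edgeR) and without the 23-week adult (-1.28, adjusted p = 0.011). In *Mov10l1*-/- testes the gene stood at 0.109 and 0.124 CPM at 21 d.p.p. and at 1.78 and 1.98 CPM in adults on the 10-library scale.

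The steepest rises in the pathway were those of *Gtsf1* and *Mael*. *Gtsf1*, a small zinc-finger protein that helps PIWI proteins to cut their targets, rose from 22.9 and 18.8 to 333 and 338 CPM (4.01 ± 0.26, adjusted p = 1.33e-05 by edgeR). *Mael*, a factor of piRNA processing and transposon silencing, rose from 198 and 123 to 1370 and 1737 CPM (3.28 ± 0.40, adjusted p = 0.000301). *Pnldc1*, the nuclease that trims piRNA ends, rose from 9.48 and 7.11 to 34.4 and 30.1 CPM (1.97 ± 0.21). The Tudor protein *Tdrd7* rose from 104 and 59.7 to 337 and 306 CPM (1.97 ± 0.31), and the gene described as SPOC domain containing 1 rose from 0.504 and 0.875 to 4.64 and 4.15 CPM (2.59 ± 0.38). *Ddx4*, the germ cell helicase, was called higher (1.26 ± 0.31) but lost the call without either adult, at 1.41 and 1.11.

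Changes of the PIWI proteins were not called. *Piwil1*, the PIWI protein of pachytene spermatocytes and spermatids, had 328 and 145 CPM at 21 d.p.p. and 392 and 397 CPM in adults (0.74 ± 0.39, adjusted p = 0.126 by edgeR). The value rests on which 21 d.p.p. library is read, as it was 1.45 without replicate 1, where it was called, and 0.25 without replicate 2. *Piwil2* had 164 and 126 CPM at 21 d.p.p. against 106 and 98.2 CPM in adults (-0.50 ± 0.22), and *Piwil4* 4.44 and 3.83 against 2.52 and 2.91 CPM (-0.60 ± 0.29). From 13 to 21 d.p.p. 9 of 18 members of the pathway were called higher and none lower, against 3.54 and 0.668% of 13178 genes. The intervals differ in how many genes were called at all, 4.2% here and 51.8% from 21 d.p.p. to adulthood. *Piwil1* stood at 4.27 and 6.46 CPM at 13 d.p.p. on the 10-library scale. For *Tdrd1*, *Tdrd5*, *Rnf17* and tudor domain containing 12 the log2 fold changes from 21 d.p.p. to adulthood lay between -0.30 and 0.14 and were not called.

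**Figure D4:**
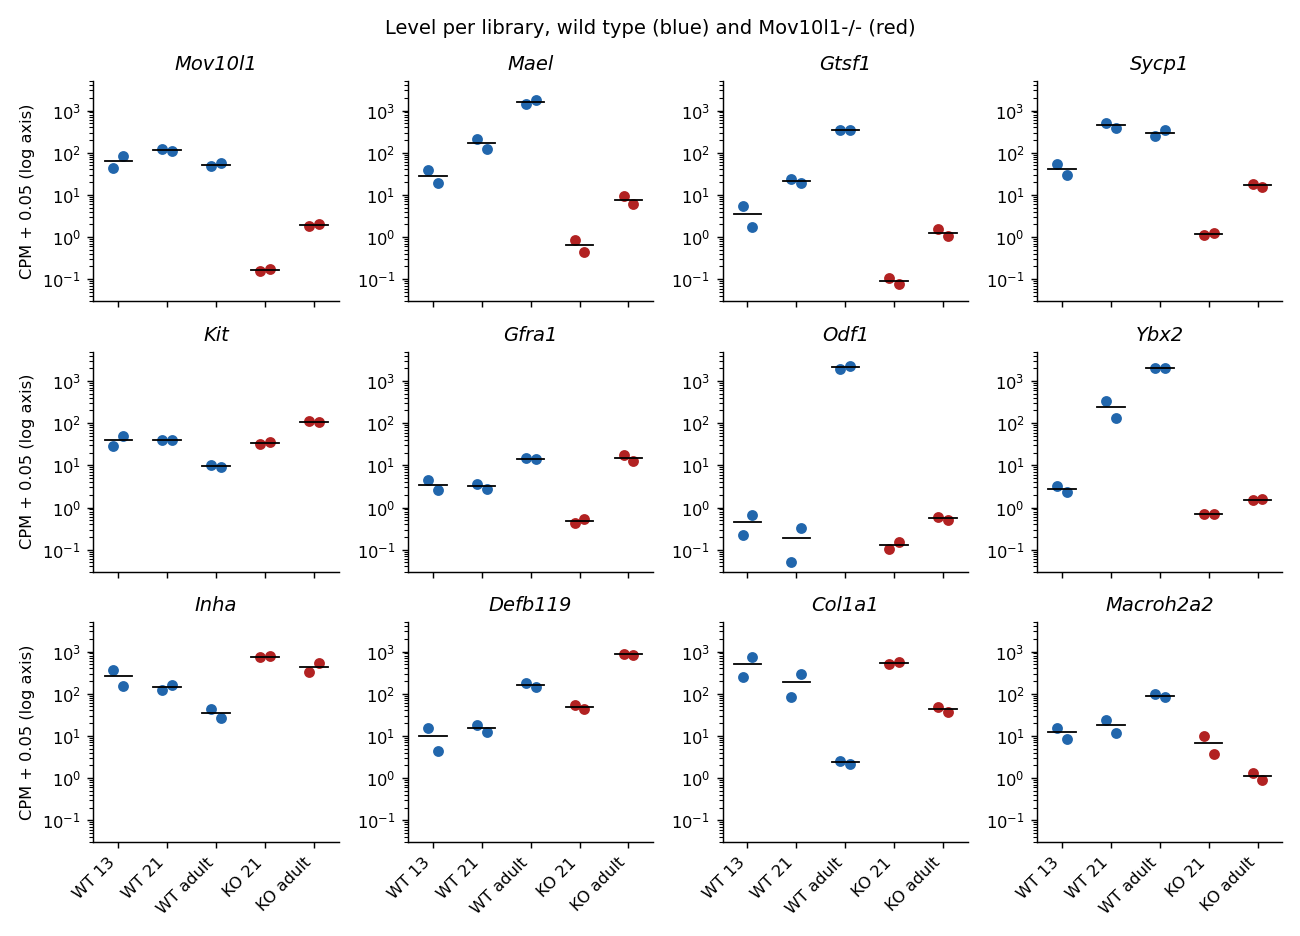
Level of 12 genes in each library (points; CPM plus 0.05 on a log axis, 10-library scale) of wild-type testis (blue) at 13 d.p.p., 21 d.p.p. and in adults and of *Mov10l1*-/- testis (red) at 21 d.p.p. and in adults, with bars at the mean of each pair. *Odf1* is high in the wild-type adults alone among these groups, *Sycp1* is highest in wild type at 21 d.p.p., and *Kit* falls with age in wild type and rises in the knockout.

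Most histone genes fell. Of 29, 23 (79.3%) were called lower and 2 higher, against 22.9% lower over all genes, with a median log2 fold change of -2.03. The summed level went from 5980 and 6800 to 2580 and 1930 CPM on the 10-library scale. Most histones are made while DNA is copied, as in dividing spermatogonia and in the round of DNA synthesis before meiosis. The linker histones *H1f3* (157 and 172 to 27.4 and 25.9 CPM, -2.63 ± 0.20, adjusted p = 3.53e-05 by edgeR) and *H1f2* (146 and 176 to 32.9 and 30.4 CPM, -2.35 ± 0.21) fell. The gene described as histone H3.1 went from 949.5 and 1111 CPM to 241 and 168 CPM (-2.33 ± 0.33), but was not called without either adult (-2.59 and -2.11). The same loss touched *H1f1* (-1.97 ± 0.26) and *H2ax* (-1.35 ± 0.19), and the number called lower was 17 without the 65-week adult and 14 without the 23-week one. Histone copies are nearly alike and reads were split between them as fractions, so the values of single copies are uncertain. *Macroh2a2*, a variant found on silent chromatin, rose from 22.5 and 11.7 to 92.1 and 81.4 CPM (2.36 ± 0.31). Histone H2A.Z went from 17.6 and 17.8 to 49.1 and 30.7 CPM (1.17 ± 0.24), with no call without the 65-week adult (0.81). *H2bc1*, a histone H2B of the testis, was not called (0.61 ± 0.29).

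Sertoli cell genes fell, with 7 of 10 called lower and 1 higher and a median log2 fold change of -1.69. Over all genes 22.9% were called lower, and over genes with a symbol 36.2%. *Inha* and *Inhbb*, which encode the subunits of inhibin B, fell from 116 and 159 to 41.98 and 26.1 CPM (-2.01 ± 0.29, adjusted p = 0.000719 by edgeR) and from 38.9 and 53.9 to 14.3 and 12.8 CPM (-1.78 ± 0.21). *Kitl*, the ligand of KIT, fell from 49.3 and 87.3 to 20.1 and 20.5 CPM (-1.76 ± 0.28), and *Sox8* from 48.7 and 49.6 to 15.1 and 16.9 CPM (-1.62 ± 0.17). *Krt8*, *Krt18* and *Cst12* were also called lower, but not without 1 or more of the libraries, and with 41 and 8 counts *Krt18* had a ratio of 9.37 (95% exact interval 4.33 to 23.1). *Defb119*, a beta-defensin, rose from 17.2 and 12.4 to 175 and 136 CPM (3.40 ± 0.26, adjusted p = 3.64e-05 by edgeR). *Clu*, clusterin, had 1349 and 1256 CPM at 21 d.p.p. and 678 and 517 CPM in adults with no call (-1.12 ± 0.33, adjusted p = 0.0184 by edgeR). Without the 65-week adult 4 of the 10 were called lower and without the 23-week adult 5.

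Steroid and sterol genes changed little as a list with TMM scaling, with 1 of 8 (12.5%) called in each direction and a median of -0.19. Of all genes 28.9% were called higher and 22.9% lower. With upper-quartile scaling 1 of the 8 was called higher and 4 lower. *CYP11A1*, the side-chain cleavage enzyme of Leydig cells that starts steroid synthesis, fell from 50.1 and 51.3 to 23.3 and 16.1 CPM (-1.36 ± 0.22, adjusted p = 0.00112 by edgeR). Lanosterol 14-alpha demethylase, an enzyme of sterol synthesis, rose from 65.1 and 73.8 to 319.5 and 339 CPM (2.24 ± 0.24, adjusted p = 0.000157 by edgeR). Other enzymes of the same route, *Hmgcs1* (0.42 ± 0.22), *Mvk* (-0.48 ± 0.31) and *Idi1* (-0.05 ± 0.17), were not called.

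Contractile cells include smooth muscle and the peritubular cells around the tubules. Their genes were called lower in 10 of 12 cases (83.3%, against 22.9% of all genes) and higher in none, with a median log2 fold change of -1.87. In all 12 both adults lay below both libraries of 21 d.p.p., as they did in 6594 of the 15285 genes tested. *Tagln* fell from 30.9 and 37.4 to 6.01 and 5.71 CPM (-2.54 ± 0.19, adjusted p = 3.19e-05 by edgeR), the myosin kinase *Mylk* from 42.8 and 47.4 to 10.0 and 9.75 CPM (-2.19 ± 0.17) and *Fhl1* from 16.9 and 18.1 to 1.76 and 1.19 CPM (-3.53 ± 0.27). *Myh11*, smooth muscle myosin, went from 149 and 143 to 63.1 and 73.3 CPM (-1.10 ± 0.20), with no call without either adult (-0.97 and -1.22). The caveolin genes *Cav1* (-1.82 ± 0.22) and *Cav2* (-1.99 ± 0.34) fell too. The summed level of the list was 354 CPM in each library of 21 d.p.p. and 125 and 122 CPM in the adults on the 10-library scale.

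The extracellular matrix list was broader, with 15 of 29 called lower and 3 higher and a median of -1.16. This is 51.7% lower, against 22.9% of all genes and 36.2% of genes with a symbol. Beside *Col1a1* and *Col9a1*, the basement membrane chains *Col4a3* (29.9 and 30.9 to 6.73 and 6.14 CPM, -2.23 ± 0.18, adjusted p = 4.25e-05 by edgeR) and *Lamb2* (47.6 and 61.5 to 8.19 and 6.36 CPM, -2.90 ± 0.22) fell, as did *Ltbp4*, which tethers latent TGF-beta (26.1 and 31.9 to 5.04 and 4.85 CPM, -2.55 ± 0.20). *Svep1*, a large adhesion protein, rose from 7.97 and 10.7 to 73.6 and 52.7 CPM (2.75 ± 0.25, adjusted p = 7.9e-05 by edgeR). *Tnc*, tenascin C, rose from 1.92 and 2.52 to 8.68 and 9.16 CPM (1.98 ± 0.27). *Reln* was called higher (1.04 ± 0.19), but not without the 23-week adult (0.92). Of the matrix genes 26 of 29 were higher in replicate 2 than in replicate 1 of 21 d.p.p., and without replicate 2 the number called lower was 14.

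Endothelial and immune genes were at low levels and showed no shared direction, with 1 of 10 (10%) called higher and 2 (20%) lower. Over all genes 28.9% were called higher and 22.9% lower, so the share lower was near that of all genes. The list's median of -0.18 turned to 0.10 without the 23-week adult. The endothelial receptor *Flt1* went from 6.86 and 6.78 to 2.73 and 2.85 CPM (-1.29 ± 0.26), the macrophage gene *F13a1* from 3.13 and 2.19 to 7.34 and 5.28 CPM (1.28 ± 0.32) and the T cell gene *Cd3e* from 0.807 and 0.820 to 0.182 and 0.162 CPM (-2.19 ± 0.48). None of these 3 calls held in all 4 fits that leave out a library. *Vwf* and *Csf1r*, defining genes of endothelium and macrophages, were present at both ages at 2.32 to 9.13 CPM and were not called. The summed level was 51.9 and 53.4 CPM at 21 d.p.p. and 61.4 and 41.6 CPM in adults on the 10-library scale.

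Growth factor signalling genes were called lower in 8 of 16 cases (50%, against 22.9% of all genes) and higher in 1, with a median log2 fold change of -1.53. Both adults lay below both libraries of 21 d.p.p. in 13 of the 16, and in 6594 of all 15285 genes tested. *Fgfr3*, a receptor of fibroblast growth factors, fell from 13.8 and 15.6 to 2.34 and 1.45 CPM (-2.92 ± 0.29, adjusted p = 0.000116 by edgeR), the Notch ligand *Jag2* from 27.1 and 25.5 to 5.58 and 4.09 CPM (-2.43 ± 0.22) and *Tgfb1* from 6.25 and 7.99 to 1.52 and 1.78 CPM (-2.13 ± 0.30). *Tgfbr3*, betaglycan, which is a co-receptor for inhibin, rose from 7.06 and 6.45 to 30.5 and 28.8 CPM (2.14 ± 0.18, adjusted p = 5.88e-05 by edgeR). Without 21 d.p.p. replicate 2 the number called lower was 4. Among imprinted and fetal growth genes 3 of 7 were called lower and 1 higher, a share lower (42.9%) near that of genes with a symbol (36.2%). *Mest* fell from 39.7 and 40.8 to 11.2 and 10.1 CPM (-1.91 ± 0.17), *Ndn* fell by 2.39 on the log2 scale, and the RNA-binding protein *Igf2bp3* rose from 2.02 and 2.30 to 29.3 and 30.4 CPM (3.77 ± 0.21, adjusted p = 6.66e-06 by edgeR). *Igf2* had 5.34 and 3.17 CPM at 21 d.p.p. and 2.76 and 3.39 CPM in adults, with no call.

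Cell division genes were called lower in 5 of 14 cases (35.7%) and higher in 1, with a median of -0.43. Of all tested genes with a symbol 36.2% were called lower, with a median of -0.52, so the list showed no fall beyond theirs. *Cdk6*, a kinase of the G1 phase, fell from 27.3 and 34.0 to 5.43 and 4.53 CPM (-2.62 ± 0.21, adjusted p = 4.39e-05 by edgeR) and *Cdk4* from 25.5 and 41.1 to 13.4 and 10.5 CPM (-1.48 ± 0.26). *Suv39h1*, a methyltransferase of heterochromatin, fell from 40.4 and 53.05 to 17.1 and 14.2 CPM (-1.58 ± 0.21). *Skp2*, which marks cell cycle inhibitors for degradation, rose from 2.12 and 2.41 to 22.9 and 30.6 CPM (3.54 ± 0.25, adjusted p = 2.25e-05 by edgeR).

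Among genes of the respiratory chain and mitochondrial ribosome 7 of 19 (36.8%) were called higher and 4 (21.1%) lower, near the 28.9 and 22.9% of all genes, and their median of 0.57 became -0.09 with upper-quartile scaling. *Chchd10* rose from 9.58 and 9.57 to 64.5 and 70.5 CPM (2.82 ± 0.18, adjusted p = 1.49e-05 by edgeR) and *Usmg5*, a part of ATP synthase, from 27.8 and 33.2 to 91.0 and 123 CPM (1.81 ± 0.23). *Cox7b*, a subunit of cytochrome c oxidase, fell from 6.55 and 7.99 to 1.73 and 0.808 CPM (-2.47 ± 0.39; -3.14 without the 65-week adult), and *Mrps26* from 21.5 and 25.8 to 7.64 and 6.89 CPM (-1.70 ± 0.20). Without the 65-week adult the numbers were 3 higher and 2 lower. Of 13 chaperones of the endoplasmic reticulum, *Creld2* alone was called (124 and 119 to 329 and 325 CPM, 1.43 ± 0.23), and not without either adult. The list's median of 0.29 turned to -0.37 with upper-quartile scaling and to -0.22 without scaling factors.

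The same interval was then set beside *Mov10l1*-/- testis, which asks how far the change depends on the genotype. In the knockout 4297 of 14549 genes were called, 2378 (16.3%) higher in adults and 1919 (13.2%) lower. Of 13753 genes tested in both genotypes, 695 were called higher in both, 876 lower in both, 272 higher in wild type and lower in the knockout, and 291 the other way. In the fit of all 8 libraries the interaction of genotype and age was called for 6684 of 16406 genes, of which 3024 (18.4%) changed more positively in wild type and 3660 (22.3%) more negatively. Which direction prevailed turned with the setting, with 3405 more positive and 2891 more negative with RLE scaling, 3838 and 3056 with DESeq2, 3910 and 3287 with no filter on low counts, and 3453 and 3029 without wild-type 21 d.p.p. replicate 1, but 2361 and 5363 with upper-quartile scaling. Wild-type replicate 2 and knockout replicate 1 of 21 d.p.p. share a code in their labels, which does not say whether they were littermates, and no fit took this into account.

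Of the 17 spermatogonial genes, 9 were called lower in wild-type adults and higher in knockout adults. In the knockout 13 of 17 were called higher in adults and none lower, and the interaction was called for 14, each more negative in wild type. *Kit* stood at 32.2 and 36.5 CPM at 21 d.p.p. and 110 and 105 CPM in the adult knockouts on the 10-library scale, a rise of 1.64 ± 0.12, against the fall of 2.07 in wild type. The difference between the changes was -3.84 ± 0.21 (adjusted p = 2.67e-06 by edgeR). *Sohlh1* had 0.273 and 0.149 CPM at 21 d.p.p. and 3.19 and 2.89 CPM in the adult knockouts, and the interaction was -6.98 ± 0.56. Its adult level in the knockout lay between those of the 2 wild-type adults, 4.31 and 2.61 CPM on the same scale.

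In the knockout 11 of 17 meiotic and 18 of 23 late germ cell genes were called higher in adults than at 21 d.p.p. and none lower. The meiotic list of the wild type had no common direction with TMM scaling. The summed level of the late germ cell list was 24.3 and 22.4 CPM at 21 d.p.p. and 99.5 and 95.4 CPM in adult knockouts, against 12500 and 12800 CPM in wild-type adults. *Odf1* had 0.542 and 0.469 CPM and *Dnah3* 0.127 and 0.420 CPM in the adult knockouts, and both interactions were called, with 7.47 ± 0.77 for *Dnah3*. Opposite to the spermatogonial genes, *Tnc* fell from 6.82 and 6.77 to 0.860 and 0.445 CPM in the knockout (-3.41 ± 0.32) where it rose in wild type, with an interaction of 5.25 ± 0.43 (adjusted p = 1.85e-05 by edgeR). *Macroh2a2* fell from 10.2 and 3.66 to 1.27 and 0.840 CPM in the knockout (-2.69 ± 0.53), with an interaction of 4.90 ± 0.69. *Col1a1* fell in both genotypes, from 517 and 571 to 47.8 and 37.5 CPM in the knockout (-3.68), and the interaction was -2.82.

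**Figure D5:**
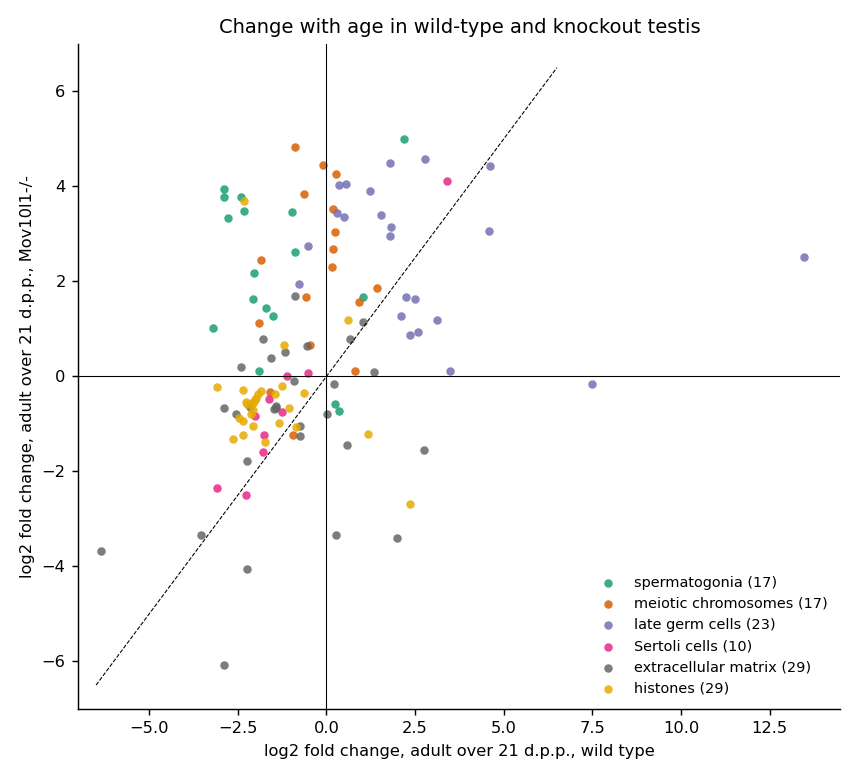
Log2 fold change of adults over 21 d.p.p. in *Mov10l1*-/- testis (y axis) against that in wild type (x axis) for the tested members of 6 gene lists, with a dashed line at equal change. Spermatogonial genes gather at the upper left, late germ cell genes to the right with *Odf1* farthest, and most Sertoli cell and histone genes at the lower left.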

How the data were processed

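Total RNA of whole testis was depleted of ribosomal RNA and made into stranded libraries, which the study sequenced in 150-nucleotide pairs at 13 d.p.p., 21 d.p.p. and in adults. The authors aligned the reads with STAR 2.7.3a to the mesAur1 genome, allowing up to 20 alignments a read, and deposited estimated counts per gene from featureCounts 2.0.0 with the Ensembl 99 annotation, in which reads of several places or genes are shared out as fractions and the *Piwil3* and *Tex101* genes were added. Counts were read by strand.

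Estimated counts, taken to the nearest integer, were tested in R 4.3.3 with edgeR 4.0.16 (quasi-likelihood test, TMM scaling, filterByExpr, Benjamini-Hochberg adjusted p below 0.01), with the 4 wild-type libraries in the age comparison, 4 in that of the knockout and 8 in the interaction of genotype and age. The steps were tested on simulated data. Values after ± are standard errors of the log2 fold change (n = 2 libraries an age), and each library has its own animal code, of which wild-type replicate 2 and knockout replicate 1 of 21 d.p.p. share the first part. CPM stands on the TMM scale of the 4 wild-type libraries, or of 10 libraries where stated. Intervals of ratios are exact at 95% and, like the total counts, cover counting error alone. Named genes were the members of 15 lists, of which those with large and small changes are given, *Mov10l1*, in each direction the 12 genes with a symbol whose called change was steepest, if the ages did not overlap and 1 age averaged 1 CPM or more, and 2 identifiers in each direction with the highest level and a log2 fold change of at least 2. Members and lists were chosen with earlier results of these data known. Symbols were taken from the study's supplementary lists, whose fold changes and p-values were not used. Gene lengths and sequences were not used here, so levels were compared within a gene, except that the identifiers were chosen by CPM without regard to length. Alternatives were RLE, upper-quartile and no scaling, DESeq2 1.42.0, other filters, thresholds and a block, a joint fit with 13 d.p.p., and the removal of each library, where the lone library of an age is assumed to vary like the other age. Genes with over 1% of a library were left out before TMM in an alternative chosen after seeing the data.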

Additional observations from a re-analysis of the deposited data

Results flagged for a closer look

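The change from 21 d.p.p. to adulthood differed between wild type and *Mov10l1*-/- testis, by edgeR's interaction of genotype and age, for 6684 of 16406 genes, of which 3024 changed more positively in wild type and 3660 more negatively, or 18.4 and 22.3%. With RLE scaling, with DESeq2 and with no filter the more positive changes were the more numerous. Spermatogonial genes with a called interaction were more negative in wild type in 14 of 17 cases and more positive in 0, and meiotic genes in 13 and 0 of 17. In the piRNA pathway 10 of 19 were more negative and 1 more positive, and among histones 17 and 2 of 29. In the extracellular matrix the counts were 10 and 6 of 29, and in late germ cells 8 and 5 of 23. In the last 2 lists the more positive share was near that of all genes. Their more negative share was near that of genes with a symbol, of which 381 of 1028 were more negative and 148 more positive. Of 19 respiratory and mitochondrial ribosome genes 7 were more positive and 1 more negative.

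For 24 members the called directions were opposite in the genotypes and the interaction was called. Of 13753 genes tested in both genotypes, 272 were called higher in wild type and lower in the knockout, and 291 the other way. The interaction was called for every one of these genes, so its call adds no support to the opposite calls. Lower in wild-type adults and higher in knockout adults than at 21 d.p.p. were *Sohlh1* (interaction -6.98 on the log2 scale), *Sall4* (-6.79), *Uchl1* (-6.32), *Egr4* (-6.24), histone H3.1 (-6.16), *Trim71* (-5.95), *Majin* (-5.81), *Fgfr3* (-5.23), *Mov10l1* (-5.22), *Tex12* (-4.39), *Elavl2* (-4.35), *Jag2* (-4.11), *Kit* (-3.84), *Taf4b* (-3.30), *Zbtb16* (-2.93), *Slc25a31* (-2.87) and *Timp1* (-2.72). Higher in wild-type adults and lower in knockout adults were *Tnc* (5.25), *Macroh2a2* (4.90), *Skp2* (4.79), *Svep1* (4.16), mitochondrial ribosomal protein L42 (2.36), histone H2A.Z (2.26) and *Creld2* (2.06). The interaction of *Creld2* was not called without scaling factors (1.54, adjusted p = 0.0329 by edgeR). Wild-type calls of *Majin*, *Mov10l1*, *Zbtb16*, *Slc25a31*, *Creld2*, histone H3.1 and histone H2A.Z did not hold in every fit that leaves out a library. The knockout calls of *Egr4* and *Zbtb16* lay just below the threshold (adjusted p = 0.00966 and 0.00926 by edgeR). Several of the germ cell genes lay under 1 CPM in the knockout at 21 d.p.p., such as *Sall4* at 0.218 and 0.224 CPM. Which cells the knockout signal comes from was not tested.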

How the results depend on the processing

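No called change of a named gene turned its direction under any alternative run, and of the 7922 genes called, 5166 were called with the same sign in each of the 4 fits that leave out a library. Without 1 library between 5795 and 7995 genes were called, 3707 to 4465 higher and 2088 to 3530 lower, the lowest of these without the 65-week adult. Upper-quartile scaling gave 6337 lower, no scaling factors 2636 higher, the joint fit with 13 d.p.p. 2178 lower, and a test against a 2-fold change 3985 in all, 2902 higher and 1083 lower; the cause of the scaling effect was not tested. DESeq2 called 7645. For the interaction, no scaling factors gave 1750 genes more positive and 3021 more negative in wild type, RLE scaling 3405 and 2891 and DESeq2 3838 and 3056, and 2069 to 3029 were more negative when any of the 8 libraries was left out. List medians less the median of all genes ranged over the left-out libraries from -0.26 (without 21 d.p.p. replicate 2) to 0.80 for the piRNA pathway, 1.80 to 2.45 for late germ cells, -1.77 to -1.26 for Sertoli cells, -0.63 to 0.14 (without the 23-week adult) for endothelium and immune cells, -0.84 to -0.0088 for imprinted genes, -1.94 to -1.05 for growth factor signalling and -2.16 to -1.72 for histones. Other settings moved the piRNA median to 0.18 (no filter) and 0.19 (without genes over 1% of a library), Sertoli cells to -1.33 and growth factors to -1.16 (at least 10 counts in every library), and imprinted genes to -1.05 (no filter). Medians not set against all genes turned to -0.22 (upper quartile), -0.16 (no scaling) for the piRNA pathway, which ranged from -0.23 (without 21 d.p.p. replicate 2) to 0.77 over the left-out libraries, as endothelium and immune cells did from -0.70 to 0.10 (without the 23-week adult), and to -0.087 for respiratory genes (upper quartile), and -0.37 and -0.22 for chaperones (upper quartile and no scaling). Replicate numbers did not pair the samples: replicate 1 less replicate 2 correlated at -0.248 between the ages over 15285 genes, and the replicate block gave 7456 calls, 4285 higher and 3171 lower, and 6008 for the interaction. With 6549436 counts, 21 d.p.p. replicate 1 limits what can be seen of rare transcripts.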
